A study of Saccharomyces cerevisiae with 36 samples.

Results

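The pool of AnBn, NICP, N and PA peptides held 38 proteins, which were tested against each other in yeast as all 1444 ordered pairs. It was sequenced as 2 of the 36 libraries of the study, 1 after selection in medium without histidine (His-) and 1 before selection (His+), and all pairs of these libraries are described here. The proteins were 12 Jerala_P peptides, 6 N peptides (N1, N2 and N5 to N8), 4 PA peptides (P5A to P8A), 3 AN and 3 BN peptides, and 10 variants of PUMA_M144A, which the title of the libraries does not name. The selected cells had grown in 1 mM 3-AT per their description, while the growth protocol that all libraries share gives 3 mM. The cells were MATa yeast with the alleles his3-delta and trp1, in which the reporter was leu2::pGAL6z-HIS3; they also carried can1, GAL, pep4::BleoMX, prbd1.6R, ura3-52, leu2-delta200 and AGA1::GAL1-AGA1::URA3, and both libraries came from this genotype. The pool is set against the combined coiled-coil pool, a larger pool that held the same 38 proteins with the same barcodes in 2 biological replicates after and 2 before selection, again at 1 mM 3-AT and in the same genotype.

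A coiled coil is a bundle of helices that wind around each other, with hydrophobic residues of a repeating heptad facing the core and charged residues beside it. The charges and the polar residues placed in the core decide which helices pair, and a longer helix with more heptads generally pairs more stably. The Jerala_P, N and PA peptides are numbered sets of designed heterodimers in which an odd-numbered peptide is meant for the next even number. AN and BN peptides are the 2 chains of one heterodimer in versions numbered 3, 35 and 4, and the labels do not define these numbers. PUMA is a BH3-only protein whose helix folds on binding to the pro-survival protein MCL1, which was not among the 38 proteins. In a yeast 2-hybrid growth selection the 2 fusion proteins of a cell bring together a DNA-binding and an activation domain, so that a pair that binds turns on HIS3, an enzyme of histidine synthesis, and 3-AT inhibits that enzyme competitively. The axis of the matrices that holds the DNA-binding partner is not known from the labels or headers. Pairs are therefore named as row protein with column protein.

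Each protein was read through a barcode of 20 bases, and the counts are of barcode pairs. The barcodes of the proteins on which the results turn are shown because they are the sequences that were counted. They are in lower case, except that capitals mark the bases at which AN4 and P8A differ from each other.
N1: cgtacgatcatgaacctttc
N2: agacttcgacaatattccgc
N5: tactgtatgttaagcttggc
P6A: gtttggctggaatgacgagc
Jerala_P5: acatgtatccctcaggtttc
Jerala_P6: ttaagacgaactgccacagc
BN4: ggctaccgacaccaaccaga
AN4: agCtCGGtAgatacctCTcG
P8A: agAtGAAtCgatacctGGcC
AN4 and P8A, at 8 differing positions, were the closest of the 38 barcodes. The barcode of N1 differed from its nearest neighbour, that of N7, at 10 positions. All 38 barcodes were the same in the maps of both library sets of the combined pool.

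The library after selection held 8221378 reads and the library before it 7787601. The median pair had 374.5 reads after and 3085.5 before selection, but pairs of 2 different Jerala_P peptides that are not designed partners had a median of only 349.5 reads before it, against 5779.5 for N, 9076.5 for PA and 7621.5 for PUMA pairs of this kind. Values below are log2 ratios of the read share after over before selection, set relative to the median of heterodimers that are not designed partners (called other heterodimers), for the 1414 pairs with at least 10 reads before selection. On library totals alone that median was -3.67, so a value of 0 is a pair whose share dropped as it did for the typical pair. With 1 library on each side there is no replicate error, no test was made within the pool, and the 95% intervals given are exact and cover counting error only; the reads are PCR products without molecular identifiers. A log2 of 3, which is 8-fold, is used as a mark of enrichment.

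Most designed partners were strongly enriched after selection. Of 1414 pairs, 170 reached a log2 of 3, which is 12%, and among the 39 designed pairs with enough reads 29 did. The median log2 was 8.39 for designed pairs, -0.36 for the 19 homodimers with enough reads and 0.00 for the 1356 other heterodimers, of which 138 reached 3. Designed pairs held 36.8% of the reads after selection and 4.71% before it, with Wilson intervals of 36.77 to 36.83% and 4.70 to 4.73%. The map of all pairs shows most designed pairs of the Jerala_P, N and PA series as dark cells beside the diagonal, together with a few rows that were high as a whole. The designed AN with BN pairs lie in the blocks between these 2 series, and 8 of the 18 reached 3.

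**Figure D1:**
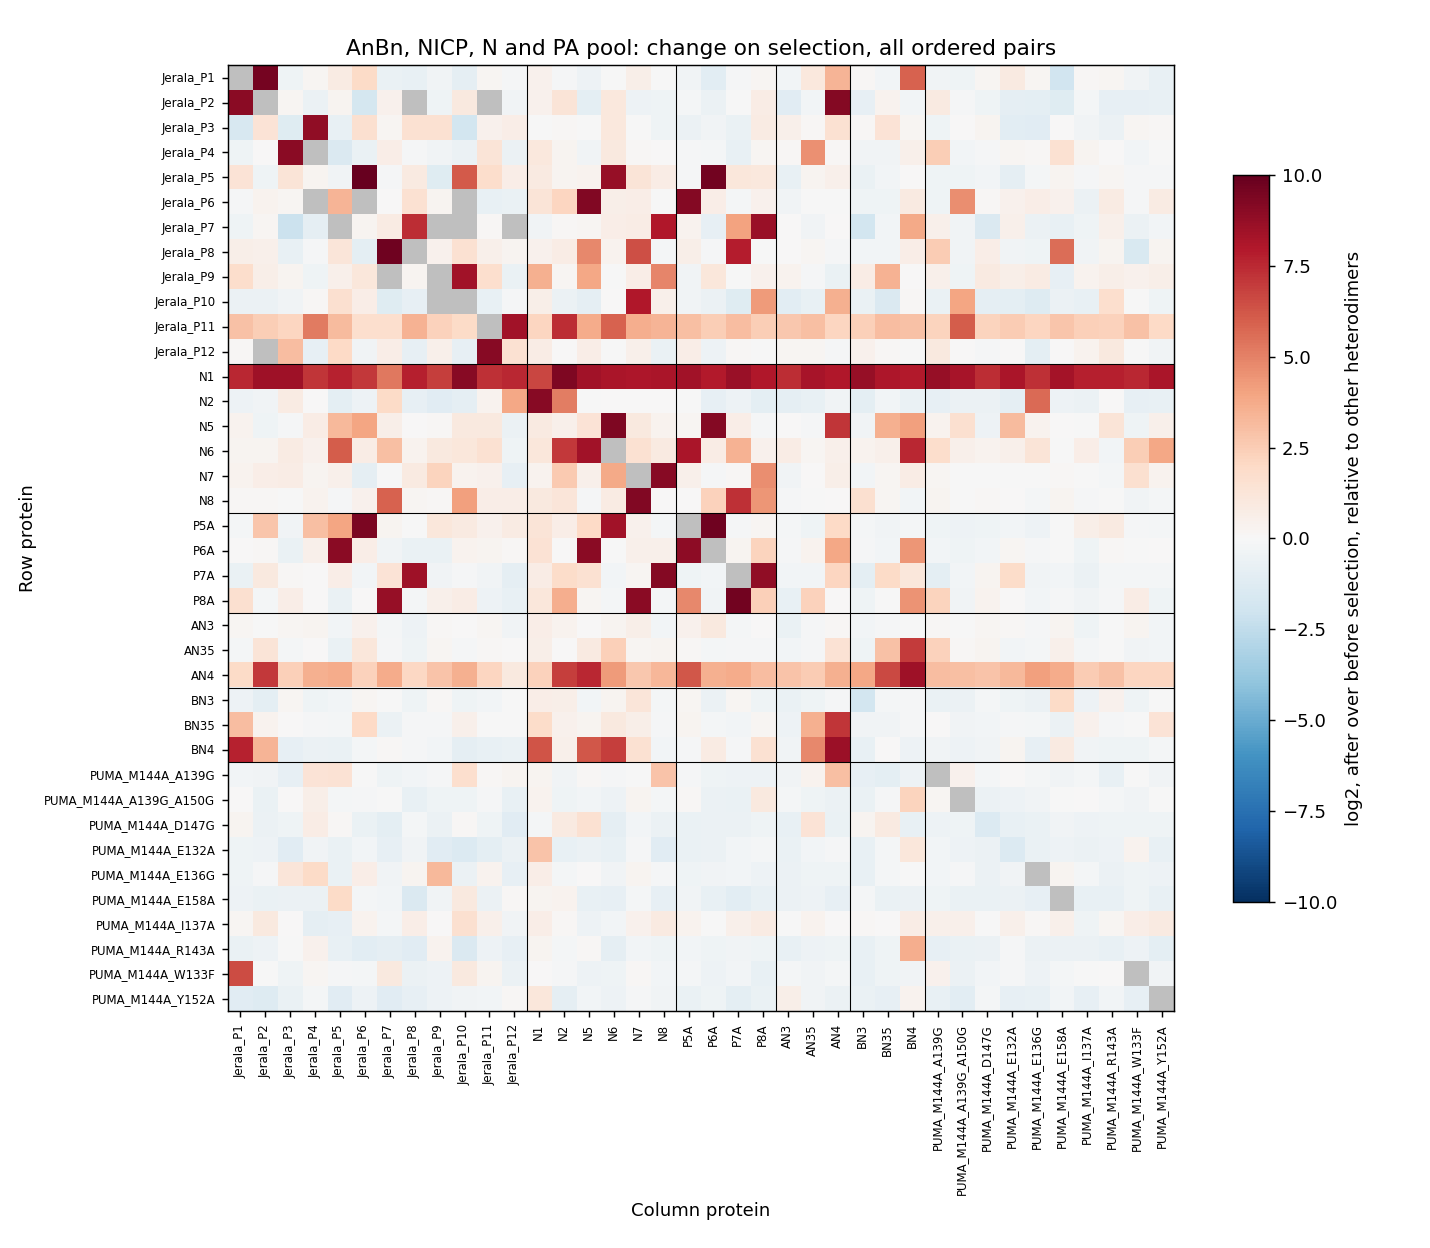
Change on selection of every ordered pair in the AnBn, NICP, N and PA pool, as log2 of the read share after over before selection relative to other heterodimers; rows and columns are the 38 proteins by series, and grey cells had fewer than 10 reads before selection. The row of N1 is high with every column protein, the rows of AN4 and Jerala_P11 are raised throughout, and the Jerala_P, N and PA series show blocks of high cells at partner numbers within and between series.

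Within the Jerala_P series, 11 of the 12 designed ordered pairs had enough reads and all 11 were above 3. Jerala_P5 with Jerala_P6 had 22836 reads after and 216 before selection, a log2 of 10.30 (interval 10.12 to 10.51), the highest of the pool. Jerala_P1 with Jerala_P2 had 17792 reads after and 282 before, a log2 of 9.56, and Jerala_P4 with Jerala_P3 had 19864 after and 459 before, a log2 of 9.02. The lowest was the first of these pairs with the sides exchanged: Jerala_P6 with Jerala_P5 had 236 reads after and 271 before selection, a log2 of 3.39 (3.13 to 3.64). Jerala_P7 with Jerala_P8 had 6393 reads after and 458 before, a log2 of 7.39, while Jerala_P8 with Jerala_P7 had 4783 and 68 and a log2 of 9.70. The other 5 measured pairs lay between 8.39 and 9.12. Jerala_P10 with Jerala_P9 had 2 reads after and 5 before selection and could not be measured.

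In the combined pool both orientations of Jerala_P5 and Jerala_P6 were high. Jerala_P6 with Jerala_P5 had log2 values of 6.42 and 6.36 in its 2 replicates and Jerala_P5 with Jerala_P6 of 6.54 and 6.12, against a gap of 6.92 between the orientations in the AnBn pool. Jerala_P10 with Jerala_P9 was well covered in the combined pool, with 94437 and 81353 reads after and 1922 and 976 before selection and log2 values of 9.12 and 8.72. The Jerala_P pairs were also measured with 1 library on each side in the NICP and mALb T pool, at 1 mM 3-AT, where all 12 designed pairs were above 3 (6.98 to 9.27) and Jerala_P6 with Jerala_P5 was the lowest at 6.98. At 2 and 10 mM 3-AT, in the NCIP pool of these 12 peptides alone, Jerala_P6 with Jerala_P5 had values of 4.74 and 0.79 in the replicates at 2 mM and 3.17 and 0.28 at 10 mM, and Jerala_P7 with Jerala_P8 had 4.01 and 2.98 at 2 mM and 0.85 and 0.87 at 10 mM. At 10 mM, Jerala_P1 with Jerala_P2 had 10.41 and 10.27. These pools differ in 3-AT and in partners, and no test was made between them.

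All 6 designed pairs of the N series and all 4 of the PA series were above 8. N5 with N6 had 102019 reads after and 1937 before selection (log2 9.31), N7 with N8 had 268528 and 5759 (9.13), and N6 with N5 was the lowest of the N series with 47795 and 1736 (8.37). P5A with P6A had 339642 reads after and 4939 before, a log2 of 9.69, and P7A with P8A was the lowest of the PA pairs at 8.90, with 230863 and 5811. The PA pairs differed between orientations by 0.71 and 0.73, and the N pairs by 0.12 to 0.94. N1 with N2 had 106936 reads after and 2025 before, a log2 of 9.31, but N1 was close to as high with most other column proteins, as described below. N2 with N1, in which N1 is the column protein, had 77317 reads after and 1714 before and a log2 of 9.08.

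The plot of values by group shows the designed pairs of the 3 numbered series near the top, except Jerala_P6 with Jerala_P5, and the AN with BN pairs spread over the whole scale.

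**Figure D2:**
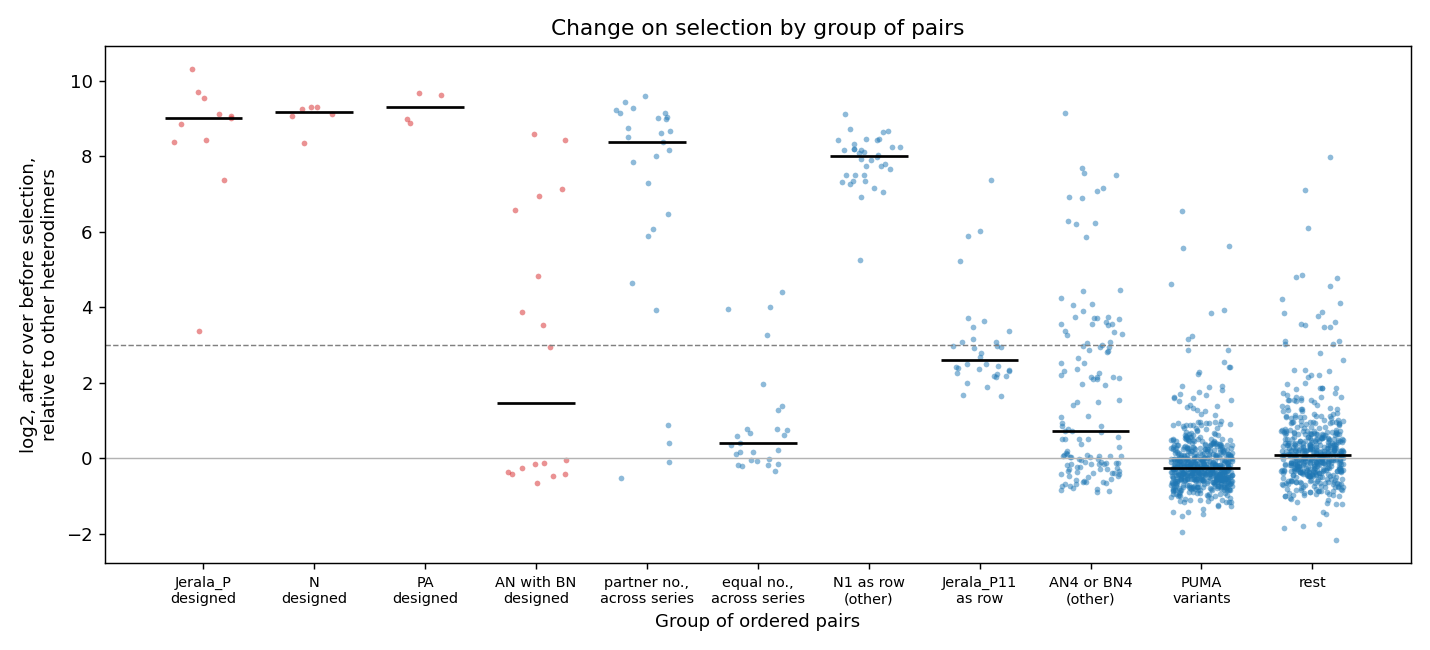
Change on selection by group of ordered pairs, as log2 after over before selection relative to other heterodimers; each point is an ordered pair, black lines are medians, the dashed line marks a log2 of 3, and designed pairs are red. The medians of the designed Jerala_P, N and PA pairs are 9.02, 9.19 and 9.30, and that of partner numbers across series is 8.39, with 4 of 27 such pairs below 1.

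The numbered series paired with each other by number. Leaving out N1 as row protein, 27 heterodimers joined a peptide of one series to the partner number of another, and 23 of them reached 3. Of 27 heterodimers that joined equal numbers of 2 series 4 did. Heterodimers of other numbers, counted both within and between series, reached 3 in 26 of 356 cases. The medians were 8.39 for partner numbers, 0.42 for equal numbers and 0.26 for other numbers. The 27 pairs of partner numbers held 18.7% of the reads after selection (Wilson 18.67 to 18.72%) and 0.742% before it (0.736 to 0.748%).

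All 12 pairs of numbers 5 and 6 reached 3. Jerala_P5 with P6A had 109985 reads after and 1690 before selection, a log2 of 9.61 (9.54 to 9.68), which was the highest value of any other heterodimer. P5A with Jerala_P6 followed with 43883 and 761 reads (9.43), Jerala_P6 with N5 with 81523 and 1563 (9.29), Jerala_P6 with P5A with 26852 and 541 (9.22), and N5 with P6A with 330383 and 6925 (9.16). These values overlap those of the designed pairs of the same series. The lowest of the 12 was N5 with Jerala_P6, with 2264 reads after and 1779 before and a log2 of 3.93 (3.84 to 4.03), against 7.74 and 7.45 in the combined replicates.

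Of the 12 pairs of numbers 7 and 8, 11 reached 3, led by P7A with N8 with 212699 reads after and 4493 before (9.15), P8A with N7 with 157743 and 3727 (8.99) and P8A with Jerala_P7 with 30952 and 863 (8.75). The exception was N7 with Jerala_P8, which had 385 reads after and 2525 before selection and a log2 of 0.88 (0.72 to 1.03). It was also low in the combined pool, at 0.13 and 0.21. The same peptides on exchanged sides, Jerala_P8 with N7, reached 6.46, and Jerala_P7 with N8 reached 8.02. N7 with P8A, at 4.64, was also among the lower pairs.

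The partner numbers 1 and 2 stayed far below 3 across series in the AnBn pool, apart from N1 as row protein. Jerala_P2 with N1 had 48 reads after and 440 before selection (log2 0.42), Jerala_P1 with N2 had 223 and 2848 (-0.08), and N2 with Jerala_P1 stood at -0.51. These pairs lay between -0.14 and 2.16 in the combined pool. Within their own series, Jerala_P1 and Jerala_P2 stood at 9.06 or more in both orientations, and N2 with N1 stood at 9.08. N1 with N2 stood at 9.31, but N1 was high as row protein with every partner. Once row and column medians were subtracted, N1 with N2 stood at 1.01, at the upper end of the N1 row. The other partners of N1 then ran from -2.70 to 1.02.

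Equal numbers across series gave 4 values above 3, of which 3 were not repeated in the combined pool. N8 with P8A had 10036 reads after and 5717 before selection (4.40), Jerala_P7 with P7A had 1166 and 866 (4.02) and P5A with Jerala_P5 had 4917 and 3803 (3.96), but all 3 pairs were below 0 in both combined replicates. N5 with Jerala_P5, at 3.26, had 0.25 and 3.22 there.

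AN with BN pairs were ordered by the numbers in their names, 3, 35 and 4, which are read here as increasing length. AN4 with BN4 had 338694 reads after and 11726 before selection, a log2 of 8.44 (8.41 to 8.47), and BN4 with AN4 had 276438 and 8641, a log2 of 8.59 (8.56 to 8.62). With one chain at 4 and the other at 35, BN35 with AN4 gave 7.15, AN35 with BN4 6.96, AN4 with BN35 6.59 and BN4 with AN35 4.84. With both chains at 35, BN35 with AN35 gave 3.54, from 29688 reads after and 30704 before, and AN35 with BN35 gave 2.96, from 10781 and 16654. The steps between these 3 groups of pairs are larger than the counting intervals, and the groups do not overlap.

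Pairs with a chain of number 3 stayed at the level of other heterodimers with 1 exception. Of these 10 ordered pairs, 9 lay between -0.65 and -0.03, each from at least 873 reads after and 13403 before selection. AN4 with BN3 had 15099 reads after and 12303 before, a log2 of 3.88 (3.85 to 3.92), while BN3 with AN4 had a log2 of -0.12. AN4 as row protein was above 0 with all partners, with a median of 3.02 and a range of 0.95 to 7.50 over 34 other heterodimers. Once the medians of row and column protein were subtracted AN4 with BN3 stood at 1.21. After the same subtraction AN4 with BN4 stood at 4.97 and BN4 with AN4 at 8.70.

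In the combined pool AN4 and BN4 again gave the highest value of either replicate, while pairs of 35 with 35 (-0.07 to 4.43) overlapped those of 4 with 35 (2.23 to 6.99). The replicates gave 7.62 and 6.66 for AN4 with BN4 and 7.27 and 7.10 for BN4 with AN4, and for these the fit with edgeR (quasi-likelihood test, 2 replicates per condition, Benjamini-Hochberg adjusted over 15532 pairs) gave log2 changes of 6.65 ± 0.48 and 6.69 ± 0.47 (SE), both with an adjusted p of 0.0339. BN35 with AN4 rose by a log2 of 6.18 ± 0.63 (edgeR adjusted p = 0.0445), and the other 15 AN with BN pairs did not pass the test. The replicates diverged for BN3 with AN4 (5.53 and -0.32) and BN35 with AN35 (0.86 and 4.43), so neither pair has a settled value there.

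**Figure D3:**
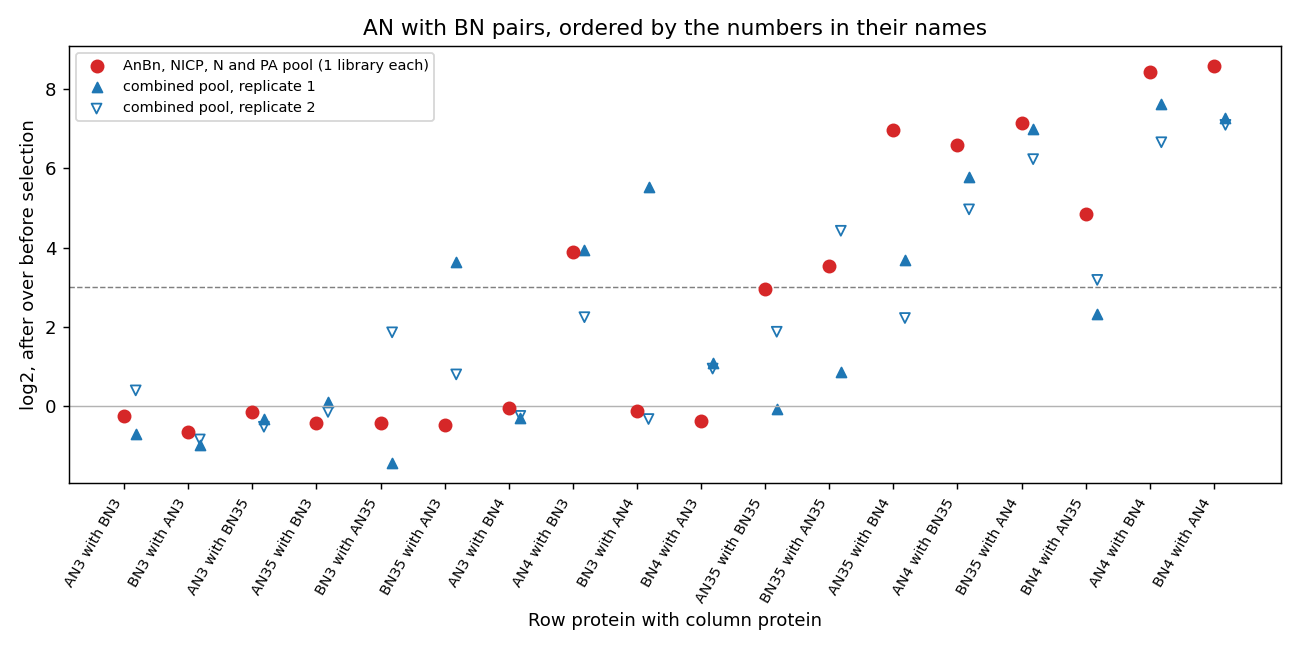
AN with BN ordered pairs, from low to high numbers in their names, as log2 after over before selection relative to other heterodimers; red points are the AnBn, NICP, N and PA pool with 1 library on each side, blue triangles the 2 replicates of the combined pool, and the dashed line marks a log2 of 3. Pairs of 4 with 4 lie at 8.44 and 8.59, pairs of 35 with 35 at 2.96 and 3.54, and all pairs with AN3 at or below 0 in the AnBn pool.

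Among chains of like kind only AN4 with itself reached 3. The 6 heterodimers of 2 AN peptides had values of -0.24 to 2.83, and the 6 of 2 BN peptides -0.73 to 0.04. The AN homodimers gave 3.53 for AN4, -0.09 for AN35 and -0.70 for AN3, and the BN homodimers gave -0.48 for BN4, -0.39 for BN35 and -1.83 for BN3. Within this set AN4 was again the highest on the AN side, but its row median over other heterodimers was 3.02, near its value with itself.

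N1 as row protein was enriched with every protein it was combined with. Its 36 other heterodimers all reached 3, with a median of 8.01 and a range of 5.26 to 9.13. The lowest was N1 with Jerala_P7, with 2305 reads after and 721 before selection, and the next lowest was 6.93. The highest was N1 with Jerala_P10. These 36 pairs took 16.4% of all reads after selection (Wilson 16.35 to 16.40%) and 0.815% before it (0.809 to 0.822%). The 10 PUMA variants were among the partners, with 7.31 to 8.72.

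As column protein N1 did not show this. The median of its 36 other heterodimers was 0.71, and 2 of them reached 3, BN4 with N1 at 6.28 and Jerala_P9 with N1 at 3.54. After subtraction of row and column medians none of the 36 row pairs reached 3, and their values ranged from -2.70 to 1.02. The row median subtracted was 8.01, and the highest value of any pair in the pool was 10.30. A row pair of N1 could thus hardly reach 3, so this outcome does not bear on single partners of N1. N1 with N2 then stood at 1.01, at the upper end of this range. Without subtraction its 9.31 was above all 36, of which the highest was 9.13.

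In the combined pool N1 was likewise high as row protein. Its median over other heterodimers was 6.25 and 5.74 in the replicates as row protein and 0.57 and 0.26 as column protein. The designed pair N1 with N2 had 7.45 and 8.54 there, with an edgeR adjusted p of 0.0684. In replicate 1 some other row pairs of N1 were higher, such as N1 with PUMA_M144A_E158A at 7.99. With the partners outside the 38, 77 of 89 row pairs and 0 of 85 column pairs of N1 were at 3 or more in both replicates, against 6.31% of 7111 pairs with neither protein among the 38. In edgeR's test N1 with BN4 passed, with a log2 change of 7.04 ± 0.71 (SE, adjusted p = 0.0438), and the other 35 did not.

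AN4 and Jerala_P11 were raised to a lesser degree as row proteins. The median of AN4 was 3.02 over 34 other heterodimers, 17 of them at 3 or more, against 2.74 and 2.36 in the combined replicates. The median of Jerala_P11 was 2.60 over 36, 11 of them at 3 or more, against 1.49 and 1.59. As column proteins their medians were 0.08 and 0.21. The next highest row protein was N6 with 0.77, and the lowest was PUMA_M144A_Y152A with -0.59.

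**Figure D4:**
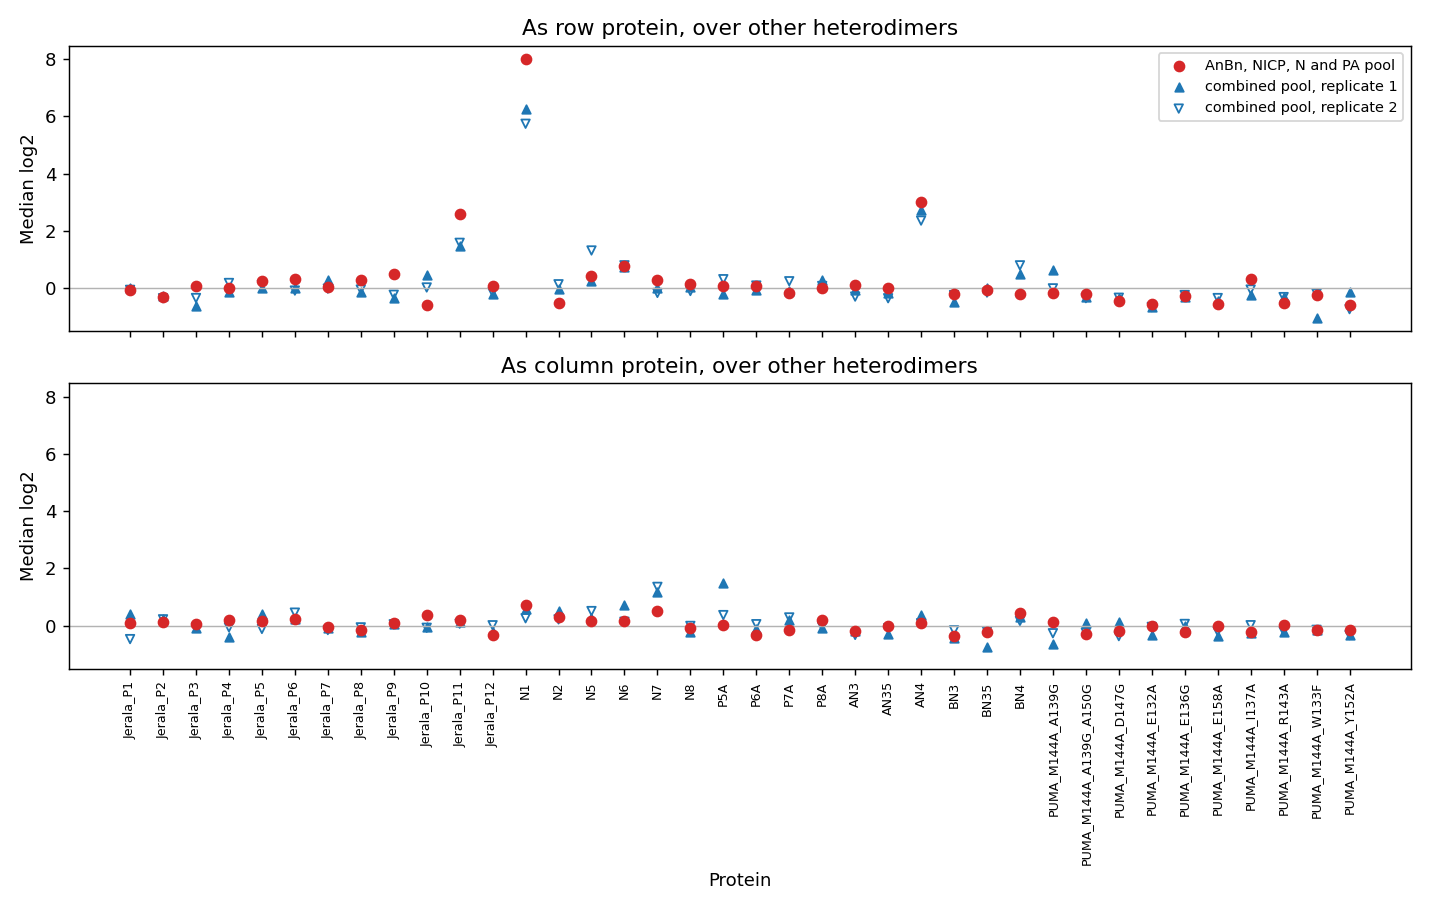
Median log2 after over before selection of each protein over its other heterodimers, as row protein (upper panel) and as column protein (lower panel); red points are the AnBn, NICP, N and PA pool and blue triangles the 2 replicates of the combined pool. N1, AN4 and Jerala_P11 stand above the rest as row proteins in both pools, at 8.01, 3.02 and 2.60 in the AnBn pool. As column protein none is above 0.71 in the AnBn pool, while the combined replicates have 1.19 and 1.36 for N7 and 1.49 and 0.37 for P5A.

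AN4 and BN4 gave high values with some peptides of the numbered series; since AN4 is raised as row protein with all partners, values with the row and column medians subtracted are given as corrected beside its row pairs. Jerala_P2 with AN4 had 53730 reads after and 1135 before selection, a log2 of 9.15 (9.07 to 9.24), and AN4 with Jerala_P2 had 47049 and 4186, a log2 of 7.08 (corrected 3.94). BN4 with Jerala_P1 had 41614 and 2413 (7.69) and Jerala_P1 with BN4 had 10870 and 2235 (5.87). Jerala_P1 with AN4 reached 3.36, against -0.06 and -0.05 in the combined replicates, and BN4 with Jerala_P2 3.38, against 3.07 and 1.09.

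N5 and N6 met these chains too. N6 with BN4 had 151242 reads after and 9701 before (7.55) and BN4 with N6 had 58615 and 5792 (6.93), and AN4 with N5 had 171881 and 11400 (7.50, corrected 4.31) and N5 with AN4 had 86741 and 7249 (7.17). BN4 with N5 reached 6.24, AN4 with N2 6.90 (corrected 3.59), AN4 with P5A 6.21 (corrected 3.18) and AN4 with N6 4.25 (corrected 1.06). AN4 and BN4 reached 3 in 29 of 86 pairs with Jerala_P, N and PA peptides, and AN3, AN35, BN3 and BN35 in 5 of 172, in each case without N1 as row protein. Over all other heterodimers without N1 as row protein 102 of 1320 did (7.73%). Of the 29, 13 had AN4 as row protein, and after correction 20 of 86 and 4 of 172 pairs were at 3 or more, among them 4 with AN4 as row protein. In both combined replicates 17 of the 29 and 0 of the 5 were also at 3 or more, against 43 of the 102.

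In the combined pool 3 of these cross pairs passed edgeR's test: AN4 with N5 rose by a log2 of 5.60 ± 0.55 (SE, adjusted p = 0.0428), AN4 with Jerala_P2 by 5.59 ± 0.45 (0.0339) and BN4 with Jerala_P1 by 6.03 ± 0.62 (0.0456). Jerala_P2 with AN4 had 8.40 and 6.68 in the replicates, and its adjusted p was 0.052.

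A few pairs of unrelated numbers were high in both pools. Jerala_P10 with N7 had 16237 reads after and 771 before selection (7.98), with 5.64 and 7.23 in the combined replicates. Jerala_P11 with N2 reached 7.39, with 5.36 and 4.48. Jerala_P11 is raised as row protein, and with row and column medians subtracted this pair stood at 4.50. Jerala_P5 with Jerala_P10 reached 6.12 from 397 and 68 reads, with 6.06 and 3.70 in the combined replicates, but -0.68 in the NICP and mALb T pool. N6 with N2, at 7.11 from 107295 and 9337 reads, had 0.82 and 5.32 in the combined replicates, which did not settle it.

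PUMA variants showed little enrichment, in a pool without MCL1. The 90 ordered pairs of 2 different variants had a median of -0.42, and none reached 3 (range -1.06 to 0.86). With the variant as row protein 4 of 370 pairs reached 3 (1.08%), and as column protein 21 of 370 (5.68%), of which 10 had N1 and 4 had AN4 as row protein. Over all other heterodimers 10.2% did. Without N1 as row protein the share was 3.06% for the variant as column protein and 7.73% over all other heterodimers. Pairs with a PUMA variant made up 13.4% of the reads after selection (Wilson 13.41 to 13.46%) and 55.0% before it (54.94 to 55.01%). These include the 10 pairs with N1 as row protein, which had a median of 54313 reads after selection, against 425 over all 650 PUMA pairs.

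The highest PUMA value outside the N1 row was PUMA_M144A_W133F with Jerala_P1, with 12728 reads after and 1623 before selection, a log2 of 6.56 (6.48 to 6.63). The other 9 variants with Jerala_P1 did not reach 3. Its combined replicates were both at -0.81. Jerala_P11 with PUMA_M144A_A139G_A150G was next at 6.02 (3.70 with row and column medians subtracted), with 1.16 and 1.48 in the combined replicates. N2 with PUMA_M144A_E136G (5.63) and Jerala_P8 with PUMA_M144A_E158A (5.58) were below 1 in both of these. PUMA_M144A_R143A with BN4 was high in both pools, at 3.62 in the AnBn pool and at 3.82 and 5.06 in the combined replicates. None of the 650 pairs with a PUMA variant passed edgeR's test in the combined pool, those with N1 included.

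Homodimers could be read for only 19 of the 38 proteins, because the others had fewer than 10 reads before selection. Homodimers made up 0.0593% of the reads after selection and 0.493% before it. Those above 3 were N1, with 187 reads after and 21 before (6.68, interval 6.09 to 7.47), N2, with 1978 and 694 (5.10), and AN4. The combined replicates gave 4.16 and 6.59 for N1 and 6.07 and 3.22 for N2. There edgeR's adjusted p was 0.125 for N1 and 0.141 for N2. N1 and AN4 were raised as row proteins with all partners, so their homodimers do not show self-pairing apart from that. The N1 homodimer lay inside the range of its row, 5.26 to 9.13, and AN4, at 3.53, was near its row median of 3.02. The row median of N2 was -0.53. Below AN4 came P8A with 2.40 and Jerala_P12 with 1.56.

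The replicated combined pool allowed a test of the same pairs. Of the 15532 pairs tested there, 0.972% rose on selection by edgeR's quasi-likelihood test at an adjusted p under 0.05. Among the 1440 tested pairs of the 38 proteins 37 rose, 16 of 40 designed pairs and 21 of 1366 other heterodimers, and none fell. With the same threshold on the adjusted p, DESeq2 gave 243 rises and 50 falls, and edgeR with library size alone 91 rises and 774 falls. Before adjustment, the p of the main edgeR fit was under 0.05 for 173 pairs that rose and 224 that fell. In the AnBn pool 36 of the 37 were at 3 or more, and the other was Jerala_P10 with Jerala_P9, with 5 reads before selection. Of the 21 other heterodimers, 17 joined partner numbers 5 with 6 or 7 with 8 across series, and the remaining 4 were N1 with BN4, AN4 with N5, AN4 with Jerala_P2 and BN4 with Jerala_P1.

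The largest edgeR changes among these cross-series pairs were 7.41 ± 0.62 for P5A with N6 (SE, adjusted p = 0.0344), 7.38 ± 0.43 for P6A with Jerala_P5 (0.0339) and 7.34 ± 0.45 for P7A with Jerala_P8 (0.0339). For designed pairs they were 8.45 ± 0.50 for Jerala_P10 with Jerala_P9 (0.0339) and 7.81 ± 0.30 for Jerala_P4 with Jerala_P3 (0.0256). All 4 PA pairs passed, 7 of 12 Jerala_P pairs, 2 of 6 N pairs and 3 of 18 AN with BN pairs. Leaving out either library after selection raised the 37 calls to 430 and 436, and leaving out either library before selection lowered them to 1, so the number of calls rests on each of the 4 libraries.

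By the plain threshold, 9.18% of 1438 pairs of the 38 proteins were at 3 or more in both combined replicates, and 106 of these were among the 170 of the AnBn pool. That is 62.4% of the AnBn list and 80.3% of the combined list. Over the 1414 pairs Pearson's r between the AnBn pool and the combined replicates was 0.64 and 0.65, and 0.55 between the combined replicates; over the 1320 other heterodimers without N1 as row protein it was 0.47 and 0.49, and 0.40 between the replicates. These are correlations over pairs, which share proteins and are not independent. In 22 pairs of the AnBn list both combined replicates were under 1, and in 20 pairs under 1 in the AnBn pool both combined replicates were above 3.

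**Figure D5:**
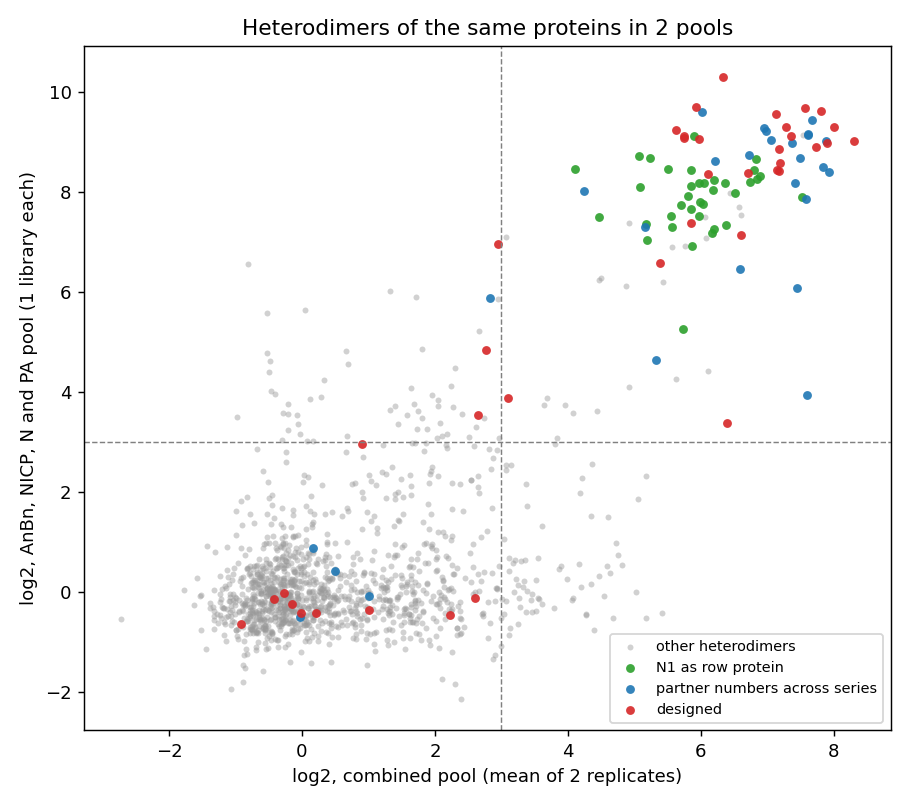
Heterodimers of the 38 proteins in the AnBn, NICP, N and PA pool (vertical axis, 1 library on each side) and in the combined pool (horizontal axis, mean of 2 replicates), as log2 after over before selection relative to other heterodimers; dashed lines mark a log2 of 3. Designed pairs, partner numbers across series and N1 row pairs gather at the upper right, apart from the AN with BN pairs of low number and 4 partner-number pairs near 0, and grey points in the other corners are pairs high in 1 pool.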

How the data were processed

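Barcode pairs were counted in yeast after (His-) and before (His+) growth without histidine. The deposited files hold counts of reads per ordered protein pair as square matrices, unnormalised, and barcode maps per library set. Per the submitters' processing notes DESeq2 was used; read matching is not given in the sources used here. Empty cells (18 after and 12 before selection; no 0 is written) were read as 0.

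Pairs with at least 10 reads before selection received a log2 of (count + 1) over the library total, after minus before, less the median of other heterodimers; the combined replicates and other pools were treated alike over the shared proteins. Intervals are exact (Clopper-Pearson, conditional on the summed reads) or Wilson, at 95%. Combined-pool counts, technical runs summed (14428752 to 22515090 reads per replicate and condition), were fitted with edgeR 4.0.16 (robust quasi-likelihood, TMM) in R 4.3.3, on pairs averaging 10 or more reads per library. SE is the absolute change over the square root of F. In data simulated for this comparison, 57% of pairs raised by a log2 of 4 and 100% of those raised by 8 were recovered among 15532 pairs, with 0 false calls. The simulation used the read shares before selection and 1 common dispersion, 0.371, for all pairs and libraries. It therefore does not give the rate of false calls where the dispersion differs between pairs or libraries. Nothing says that the replicates of the combined pool are separate transformations, so p-values measure the spread between these libraries. The labels put same-numbered libraries in 1 library set, which pairs them; their deviations correlated with 0.229.

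Named pairs were all designed pairs, the 20 other heterodimers and 5 homodimers with the highest values, equal and partner numbers across series, and the proteins of highest and lowest median on each side (up to 5); the cross pairs of AN4 and BN4, of unrelated numbers and of PUMA variants beyond these were chosen after their values were seen. Members and lists were chosen with earlier results of these data known. Alternatives were other pseudocounts, minima, centrings and thresholds, subtraction of row and column protein medians, DESeq2 1.42.0, library size alone, other filters, a replicate block, 1 technical run and each library left out. Python 3.11.15 with numpy 2.4.6, pandas 2.3.3, scipy 1.17.1 and matplotlib 3.10.9 was used.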

Additional observations from a re-analysis of the deposited data

Results flagged for a closer look

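Among 1395 heterodimers with enough reads, 21 had the AnBn pool on one side of 0 and both combined replicates on the other, with one of the pools at a log2 of 3 or more; the differences between pools were not tested, and the AnBn values come from 1 library on each side.

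In 10 of them the AnBn pool was high and the combined replicates below 0. The AnBn pool gave 6.56 for PUMA_M144A_W133F with Jerala_P1, 5.58 for Jerala_P8 with PUMA_M144A_E158A and 4.78 for Jerala_P8 with N5. It gave 4.61 for Jerala_P6 with PUMA_M144A_A139G_A150G, 4.40 for N8 with P8A, 4.02 for Jerala_P7 with P7A and 3.96 for P5A with Jerala_P5. It gave 3.49 for Jerala_P9 with BN35, 3.36 for Jerala_P1 with AN4 and 3.03 for N6 with Jerala_P7. The combined replicates of these 10 were all below 0.

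In the other 11 the AnBn pool was below 0 and both combined replicates were at 3 or more. These 11 include 3 PUMA variants with the column protein P8A: PUMA_M144A_A139G with P8A had -0.52 in the AnBn pool, against 6.11 and 4.25, PUMA_M144A_E136G with P8A had -0.53, against 4.07 and 5.28, and PUMA_M144A_D147G with P8A had -0.45, against 4.11 and 4.43. Jerala_P10 with PUMA_M144A_I137A had -0.76, against 5.27 and 3.51, BN4 with PUMA_M144A_W133F had -0.42, against 5.09 and 5.74, and P7A with PUMA_M144A_Y152A had -0.16, against 4.17 and 3.94. Jerala_P2 with Jerala_P9 had -0.46 from 10 and 181 reads, against 3.64 and 4.89, and Jerala_P5 with P5A had -0.14, against 3.40 and 3.74. N5 with Jerala_P3 had -0.13, against 5.09 and 3.06, PUMA_M144A_A139G_A150G with Jerala_P11 had -0.089, against 5.05 and 4.03, and Jerala_P6 with AN4 had -0.0095, against 5.26 and 4.78. Jerala_P5 and P5A thus appear on both lists, with the sides exchanged. None of the 21 passed edgeR's test in the combined pool.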

How the results depend on the processing

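The 29 designed pairs at a log2 of 3 or more stayed within 1.5 times of that count under all pool settings run (24 to 30, and 21 without AN and BN pairs, a choice added after seeing the data). The 138 other heterodimers became 64 on library totals alone, 75 after subtraction of row and column protein medians and 79 at a threshold of 5, and the difference of medians, 8.39, became 7.14 under that subtraction. Without N1 as row protein, also added later, there were 102. Of the named pairs, 21 changed sign on library totals alone, which lowers every value alike; 3 of them had been at 3 or more, BN35 with AN35 (-0.13), Jerala_P6 with Jerala_P5 (-0.28) and N5 with Jerala_P5 (-0.40). Under the subtraction 10 changed sign, of which 1 had been at 3 or more, N1 with Jerala_P1 (-0.59), and none did under other pseudocounts, other minima or centring on all pairs.

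In the combined pool the counts of 16 designed pairs and 21 other heterodimers became 30 and 207 with DESeq2 and 26 and 65 with library size alone (where 774 pairs of the 38 proteins fell), and ranged from 1 to 32 and from 0 to 397 when each library was left out; with DESeq2 and library size the cause was not tested. With the replicate block, which pairs libraries of 1 set, they were 17 and 24 and no call was lost. All 37 calls were kept under DESeq2, library size alone, both other filters, the block, 1 technical run and without either library after selection, and 1 was kept without either library before it. Depth limits the homodimers and the Jerala_P heterodimers of the AnBn pool: 11 heterodimers, all of Jerala_P peptides, had fewer than 10 reads before selection.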
